A study of Mus musculus with 6 samples.

Results

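The genes of the mitochondrial solute carrier family (Slc25a) and of the uncoupling proteins Ucp1, Ucp2 and Ucp3 were compared between mice given carbon tetrachloride (CCl4) and control mice. Members were every row whose symbol is Slc25a followed by a number, or Ucp1, Ucp2 or Ucp3, which gave 48 of the 32479 rows of the expression table, 45 of them Slc25a genes. The mice were C57BL/6J, a standard inbred laboratory strain, with 3 mice and 3 RNA sequencing libraries in each group, replicates 1 to 3. CCl4 is a solvent that injures the liver and was given here to model cirrhosis, and the series asks how that disease acts on the heart. All 6 libraries carry the label of primary cells, isolated cardiac fibroblasts. Dose, route and duration of CCl4, a vehicle for the controls, sex, age and the isolation method were each not given in the sources used here.

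Carriers of this family are encoded in the nucleus, made in the cytosol and inserted into the inner mitochondrial membrane, which is closed to most solutes. Each one lets a particular set of molecules cross, among them ADP and ATP, phosphate, carnitine esters of fatty acids, carboxylic acids, amino acids, coenzymes and iron. The uncoupling proteins belong to the same family. Ucp1 lets protons leak back in brown fat and so makes heat, while Ucp3 is made mainly in skeletal muscle and heart and is induced by fatty acids and fasting, and Ucp2 is made in many tissues, immune cells included. Heart muscle is rich in mitochondria and draws much of its ATP from fatty acids, so carriers for adenine nucleotides, phosphate and acylcarnitines are abundant there.

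Values are FPKM (fragments counted relative to the length of a gene and the size of its library), a scale on which levels of different genes can be set side by side. Of the 48 members, 39 had a mean of at least 1 FPKM over the 6 libraries and were tested. Log2 fold changes are differences of log2(FPKM + 1), CCl4 minus control, which understates changes of low genes, and adjusted p-values come from limma with Benjamini-Hochberg adjustment over all 10995 rows tested. Calls were made at 0.05 on that adjusted p. In CCl4 libraries 5 of the 39 members were called higher and 11 lower, 16 in all (41.0%). Of all rows tested, 31.8% were called, 9.64% higher and 22.2% lower, against 12.8% and 28.2% of the members. Without CCl4 replicate 3, 3 members were called higher and 10 lower, and calls over all rows went from 1060 to 642 higher and from 2441 to 1546 lower. The 3 CCl4 values lay wholly above or below the 3 control values in 16 members (41.0%), the same 16 that were called, and in 48.7% of all rows tested. The median log2 fold change was 0.01 over the members and -0.09 over all rows, and the median size without sign 0.21 and 0.20.

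The balance of higher and lower calls depended on scaling. Of all rows called, 30.3% were higher without rescaling and 12.7% after bringing each library to a common sum (TPM). That share of calls was 47.2% with trimmed mean of M-values (TMM) factors, 49.0% with median-ratio factors and 41.0% without mitochondrial rows. The median log2 fold change over all rows tested moved from -0.09 to -0.21 as TPM. Of the members, 3 were then called higher and 13 lower as TPM, 5 and 10 with TMM, 5 and 9 with median-ratio scaling and 5 and 10 without mitochondrial rows. Gene positions below are whole gene spans in GRCm38. Where a member's call ended under one of these scalings, this is given beside it.

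The libraries did not look like a fibroblast culture. The 7 cardiomyocyte markers summed to 8282 to 10023 FPKM in control libraries against 9898 to 10873 FPKM under CCl4, and 0 of the 7 were called. The 7 fibroblast markers summed to 434.1 to 694.1 and 505.4 to 512.4 FPKM, with 3 called higher (Col1a1, Col1a2 and Lum) and none of the other 4 called. Pdgfra and Tcf21, which mark resident fibroblasts, ran from 3.47 to 4.71 and from 1.96 to 2.85 FPKM. The labelled cell type is thus present by its markers but is outweighed by heart muscle transcripts in every library, and the carriers below were measured in that mixture. The sum of the 5 erythroid markers ran from 406.2 to 1731 FPKM in control libraries, against 1689 to 3107 FPKM in CCl4 libraries, with all 4 tested members higher. Control replicate 1 stood apart at the top of the control range, and without it 5 members were called higher and 11 lower. The members called higher were not all the same, as Slc25a10 lost its call and Slc25a13 gained one. Of 5 endothelial markers, 1 was called higher (Kdr, 10.96 to 16.35 FPKM) and 0 lower. Of 5 smooth muscle and pericyte markers, 1 was called higher (Cnn1, 0.69 to 1.53 FPKM) and 0 lower. In such bulk samples fewer cells of a type and less RNA per cell cannot be told apart, and the part of cell makeup in the results below was not tested. The 37 rows of the mitochondrial genome took 48.6% to 50.7% of the FPKM sum in control and 52.0% to 53.2% in CCl4 libraries. With their 7 nuclear copies, which are left out with them wherever a value is given without mitochondrial rows, the share was 65.3% to 68.5% against 71.5% to 72.1%. Fragment depth is unknown, and 10737 to 11220 rows per library stood at 1 FPKM or more.

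The levels of the carriers were very unequal. Slc25a4, the heart and muscle form of the ADP/ATP carrier, alone gave 62.7% of the members' summed mean, and with Slc25a3, Slc25a11 and Slc25a5 the share was 85.8%. These 4 were the members at or above 100 FPKM. Another 8 stood from 10 to 100 FPKM, 10 from 5 to 10, 17 from 1 to 5, and 9 under 1 FPKM. Slc25a4 stood at percentile 99.7 of all rows tested.

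**Figure D1:**
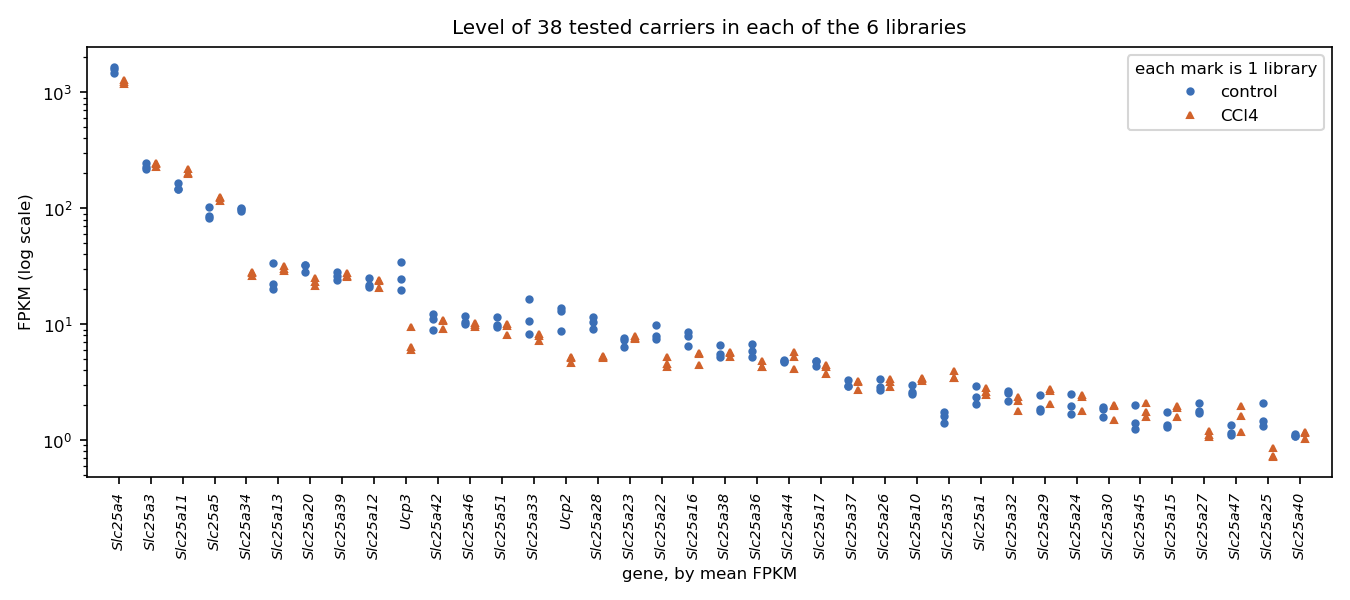
FPKM in each library (log axis) of 38 tested members, ordered by mean level, with control and CCl4 libraries as separate points. Slc25a4 is the highest in every library, and the groups separate widely for Slc25a34 and Ucp3.

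The 3 largest falls on the log2 scale were those of Slc25a34, Ucp3 and Ucp2. The RefSeq promoter windows of these genes are shown because these changes lead the results. They were picked after the values were seen. Each window runs from 250 bases before to 50 bases after the transcript start, in build GRCm38.p6, 5′ to 3′ on the strand of the gene. Capitals mark the half-site AGGTCA, or its complement on the other strand, which forms part of the sites that many nuclear receptors bind. A single half-site does not mark a site of any particular receptor. The windows lie at chr4:141623785-141624084 on the minus strand for Slc25a34, at chr7:100472741-100473040 on the plus strand for Ucp3 and at chr7:100493108-100493407 on the plus strand for Ucp2.
Slc25a34: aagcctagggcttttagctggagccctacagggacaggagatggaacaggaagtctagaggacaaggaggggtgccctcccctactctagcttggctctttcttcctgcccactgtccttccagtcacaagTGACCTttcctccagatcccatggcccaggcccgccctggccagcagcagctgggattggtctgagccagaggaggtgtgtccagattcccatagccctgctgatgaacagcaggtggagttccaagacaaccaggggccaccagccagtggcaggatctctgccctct
Ucp3: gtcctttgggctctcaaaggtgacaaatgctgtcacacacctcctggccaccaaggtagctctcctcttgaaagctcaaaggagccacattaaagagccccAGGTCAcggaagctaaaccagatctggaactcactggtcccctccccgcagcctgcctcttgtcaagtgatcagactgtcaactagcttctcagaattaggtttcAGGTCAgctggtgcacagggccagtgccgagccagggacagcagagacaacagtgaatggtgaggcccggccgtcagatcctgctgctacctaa
Ucp2: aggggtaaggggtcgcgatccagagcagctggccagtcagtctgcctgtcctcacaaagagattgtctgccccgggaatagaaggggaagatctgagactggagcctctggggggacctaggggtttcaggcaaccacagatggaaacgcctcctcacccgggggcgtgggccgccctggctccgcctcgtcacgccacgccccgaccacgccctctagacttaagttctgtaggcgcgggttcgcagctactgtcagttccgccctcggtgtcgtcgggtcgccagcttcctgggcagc

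The Slc25a34 window holds 1 half-site, on the reverse strand 119 bases before the start. Ucp3 has 2 on the forward strand, 149 and 44 bases before the start, and the letters are not in the Ucp2 window. Member windows on chromosome 18, where Slc25a46 and Slc25a2 lie, were left out, but the set of all windows keeps that chromosome. Of the 48 members 38 had windows in use, with 48 windows in all, since some genes have several starts. Members off chromosome 18 without a window in use include Slc25a35, called higher, and Slc25a27, called lower. Slc25a22 and Slc25a25, both called lower, gave several windows each. AGGTCA stood on either strand in 6 of the 48 member windows (12.5%) and in 16.3% of all 32851 windows of that length. Among windows of called members it was in 2 of 14 of lower genes and in 0 of 3 of higher genes, against 3 of 19 windows of tested members that were not called. The longer form AAGGTCA, which contains the half-site, was in 1 of the 48 windows, that of Slc25a34, and in 4.72% of all windows. The direct repeat of AGGTCA with any 1 base between was in 0 of the 48 and in 0.0396% of all. GCGCATGC, a core letter run of the NRF1 motif, was in 1 member window and 2.71% of all, and the E-box CACGTG in 8 (16.7%) and 7.15%. Of the 8 windows with the E-box, 3 belong to members that were not tested, among them overlapping windows of Slc25a14. Median GC content was 59.3% over member windows and 52.7% over all windows. These matches are descriptions of letters in a short window and carry no test.

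Among the carriers of adenine nucleotides and phosphate, 1 of 6 tested members rose and 2 fell, with a median log2 fold change of 0.06. These counts and those of the other roles stand beside 9.64% higher, 22.2% lower and a median of -0.09 over all rows tested, and each role holds few genes. Slc25a4 (chr8:46206797-46211284, minus strand), which exports ATP in exchange for ADP, stood at 1668, 1583 and 1481 FPKM in control replicates 1 to 3, against 1271, 1189 and 1239 FPKM in CCl4 replicates 1 to 3. The highest CCl4 library lay below the lowest control library. The mean fell from 1577 ± 93.9 to 1233 ± 41.5 FPKM (SD, n = 3 each), a log2 fold change of -0.35 ± 0.08 (SE; limma adjusted p = 0.0124). The call ended with TMM (-0.27, limma adjusted p = 0.082), with median-ratio scaling (-0.26, limma adjusted p = 0.096) and with no filter (limma adjusted p = 0.0711).

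Slc25a5 (chrX:36795651-36798807, plus strand) is the ADP/ATP carrier of most other and of dividing cells. It had 102.7, 86.3 and 82.4 FPKM in the control libraries against 126.2, 115.5 and 122.5 FPKM under CCl4, with every CCl4 library higher. It rose from 90.5 ± 10.8 to 121.4 ± 5.43 FPKM (SD, n = 3 each; log2 fold change 0.43 ± 0.10 SE, limma adjusted p = 0.0133). As TPM the value was 0.27 (limma adjusted p = 0.0726), and without CCl4 replicate 3 limma gave an adjusted p of 0.0505. Of the 31-base words of Slc25a5, 49.4% also occur in 13 other genes, so reads could be split among them. The 10 of these that share at least 1% of the words had a summed mean of 1.88 FPKM.

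The ratio of Slc25a4 to Slc25a5, which does not depend on the scaling of a library, was 16.2, 18.3 and 17.97 in the control libraries against 10.1, 10.3 and 10.1 under CCl4. It thus went from 17.5 ± 1.12 to 10.2 ± 0.117 (SD, n = 3 each; exact two-sided permutation test, p = 0.1). With 3 against 3 libraries 0.1 is the smallest p that this test can give, so no single measure can pass 0.05. It was 1 of 8 such measures, and Benjamini-Hochberg adjustment over them gave 0.133. The share of Slc25a4 in the members' summed FPKM was 65.0% ± 0.872 in control libraries against 59.9% ± 1.03 under CCl4 (SD, n = 3 each; exact permutation p = 0.1, adjusted 0.133).

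Slc25a3, the phosphate carrier that supplies ATP synthase, had 246.9, 227.3 and 216.1 FPKM in the control libraries against 239.5, 226.4 and 247.3 FPKM under CCl4. These ranges overlap, and its log2 fold change was 0.05 ± 0.08 (SE; limma adjusted p = 0.678). Of the calcium-regulated carriers that exchange ATP-Mg for phosphate, Slc25a25 was low, at 1.33, 1.47 and 2.11 FPKM in the control libraries against 0.73, 0.85 and 0.71 FPKM under CCl4. All 3 CCl4 values were under the lowest control value. Slc25a25 fell by 0.57 ± 0.12 on the log2 scale (SE; limma adjusted p = 0.00913), and by 0.99 with a pseudocount of 0.1. Its mean of 1.2 FPKM passed the filter only through the control libraries, as every CCl4 value was under 1 FPKM. With no filter the limma adjusted p was 0.0421. Slc25a25 shares 379 exon bases with Naif1 on the opposite strand, which averaged 0.867 FPKM. Slc25a23 was at 7.11 ± 0.61 and 7.64 ± 0.2 FPKM and Slc25a24 at 2.05 ± 0.407 and 2.20 ± 0.36 FPKM (SD, n = 3 each), and neither was called. Slc25a31, the ADP/ATP carrier of the germ line, averaged 0.167 and 0.21 FPKM and was under the level tested.

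Of the uncoupling proteins and their close relatives, 0 of 4 tested members rose and 3 fell, with a median of -0.76, where 22.2% of all rows fell and 9.64% rose. Ucp3 (chr7:100472990-100486432, plus strand) had 34.6, 19.7 and 24.4 FPKM in the control libraries against 6.40, 9.46 and 6.00 FPKM under CCl4. The lowest control library was above the highest CCl4 library by a factor of over 2. The mean fell from 26.2 ± 7.61 to 7.29 ± 1.89 FPKM (SD, n = 3 each), to 27.8% of control, with a log2 fold change of -1.70 ± 0.21 (SE; limma adjusted p = 0.00119). This call held under every alternative run, with an adjusted p of at most 0.0106 in limma.

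Ucp2 (chr7:100493337-100502020, plus strand) lies 6904 bases beyond the end of Ucp3 on the same strand. It had 12.9, 8.80 and 13.8 FPKM in the control libraries against 4.66, 5.07 and 5.24 FPKM under CCl4. CCl4 values were close together, and control replicate 2 was the lowest control. Ucp2 fell from 11.8 ± 2.68 to 4.99 ± 0.298 FPKM (SD, n = 3 each), to 42.1% of control, with a log2 fold change of -1.08 ± 0.15 (SE; limma adjusted p = 0.00164; at most 0.0128 over the alternatives run). The gene is also made in macrophages, whose 6 markers summed to 133.4 to 172.0 FPKM in control libraries against 153.3 to 171.8 FPKM under CCl4, with 1 of the 6 called higher (Cd68) and 0 called lower. The part of macrophages in the fall of Ucp2 was not tested. Ucp2 shares 305 exon bases with Dnajb13 on the opposite strand, which averaged 0.085 FPKM. The ratio of Ucp3 to Ucp2 was 2.23 ± 0.458 in control libraries against 1.46 ± 0.368 under CCl4 (SD, n = 3 each; exact two-sided permutation p = 0.2, adjusted 0.229).

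Ucp1 was listed at 0 in 5 libraries and at 0.03 FPKM in CCl4 replicate 2, so it was not tested. Of the 5 brown adipocyte markers, which include Ucp1, only Cidea was tested, and it was called higher. Slc25a27, a relative of the uncoupling proteins known from brain as Ucp4, had 1.77, 2.11 and 1.73 FPKM in the control libraries against 1.10, 1.07 and 1.2 FPKM under CCl4. The groups did not overlap, and Slc25a27 fell by 0.43 ± 0.09 on the log2 scale (SE; limma adjusted p = 0.0075), or by 0.68 with a pseudocount of 0.1. The related Slc25a30 was at 1.79 ± 0.186 and 1.82 ± 0.29 FPKM (SD, n = 3 each) and was not called. Slc25a14 averaged 0.92 and 0.627 FPKM, just under the level tested.

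**Figure D2:**
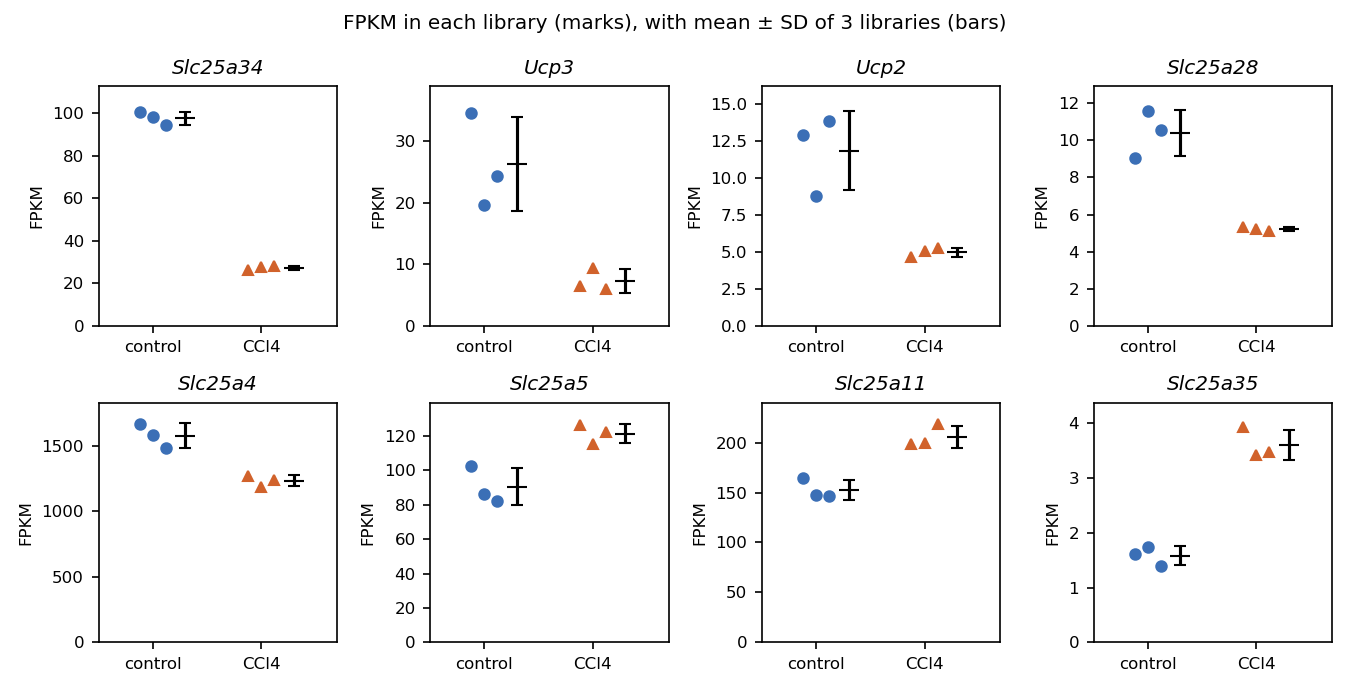
FPKM in each control and CCl4 library for Slc25a34, Ucp3, Ucp2, Slc25a28, Slc25a4, Slc25a5, Slc25a11 and Slc25a35, 1 panel per gene with its own axis from 0 and a bar for each group's mean ± SD. In none of the 8 panels do the groups overlap, and control values spread more than CCl4 values for Ucp3 and Ucp2.

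Carriers of carnitine esters and of di- and tricarboxylates moved in both directions, with 3 of 6 tested members higher, 2 lower and a median of 0.16, beside 9.64% higher and 22.2% lower over all rows. Slc25a34 (chr4:141618824-141623821, minus strand), placed by sequence beside the dicarboxylate carriers, had 100.3, 98.1 and 94.3 FPKM in the control libraries against 26.2, 27.5 and 28.2 FPKM under CCl4. Each group was tight, and the lowest control library was over 3 times the highest CCl4 library. It fell from 97.6 ± 3.06 to 27.3 ± 1.01 FPKM (SD, n = 3 each), to 27.96% of control. The log2 fold change of -1.80 ± 0.07 (SE; limma adjusted p = 1.72e-05) had an adjusted p of at most 0.000684 over the alternatives run. It was the largest in size as reported, but Ucp3 was as low relative to control by means (27.8%) and had the larger fold change without control replicate 2 (-1.88 against -1.80) and without CCl4 replicate 2 (-1.88 against -1.81).

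Slc25a35 (chr11:68968131-68974365, plus strand) is a close relative of Slc25a34. It had 1.62, 1.74 and 1.40 FPKM in the control libraries against 3.93, 3.43 and 3.47 FPKM under CCl4, so all CCl4 libraries were higher. It rose from 1.59 ± 0.172 to 3.61 ± 0.278 FPKM (SD, n = 3 each), to 227.5% of control, with a log2 fold change of 0.83 ± 0.09 (SE; limma adjusted p = 0.000477). It shares 1151 exon bases with Rangrf on the opposite strand. Rangrf rose from 12.2 ± 0.736 to 15.8 ± 1.49 FPKM (SD, n = 3 each; log2 fold change 0.34 ± 0.09 SE, limma adjusted p = 0.0216), and 27.4% of the 31-base words of Slc25a35 occur in it. The libraries keep strand, but the strand setting of the quantification was itself not given in the sources used here, so reads of the 2 genes may not have been told apart. The ratio of Slc25a34 to Slc25a35 was 61.9, 56.4 and 67.3 in the control libraries against 6.66, 8.03 and 8.11 under CCl4. Its means were 61.9 ± 5.48 and 7.60 ± 0.815 (SD, n = 3 each; exact two-sided permutation p = 0.1, adjusted 0.133).

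Slc25a11 (chr11:70644196-70647479, minus strand) exchanges oxoglutarate for malate and is part of the malate-aspartate shuttle, which brings reducing equivalents from the cytosol into mitochondria. It had 164.1, 147.2 and 146.9 FPKM in the control libraries against 198.1, 200.01 and 218.5 FPKM under CCl4, with every CCl4 library above every control. The mean rose from 152.7 ± 9.89 to 205.5 ± 11.3 FPKM (SD, n = 3 each; log2 fold change 0.43 ± 0.08 SE, limma adjusted p = 0.00683). As TPM the value was 0.27 (limma adjusted p = 0.0434). Its opposite-strand neighbour Rnf167 shares 189 exon bases with it and fell from 15.1 to 12.4 FPKM (log2 fold change -0.26, limma adjusted p = 0.0211).

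Slc25a20 (chr9:108662088-108684641, plus strand), which carries acylcarnitines inward and carnitine outward, had 28.4, 32.5 and 32.5 FPKM in the control libraries against 23.1, 21.4 and 25.1 FPKM under CCl4. The highest CCl4 value was below the lowest control value. Slc25a20 fell from 31.1 ± 2.38 to 23.2 ± 1.83 FPKM (SD, n = 3 each), to 74.5% of control, with a log2 fold change of -0.41 ± 0.09 (SE; limma adjusted p = 0.0115). Of its 31-base words, 9.02% also occur in other genes. The 33 genes that share at least 1% of the words had a summed mean of 29.1 FPKM, and the effect of this on its level was not tested. Slc25a10, the dicarboxylate carrier that exchanges malate or succinate for phosphate, had 2.50, 2.58 and 2.97 FPKM in the control libraries against 3.45, 3.38 and 3.23 FPKM under CCl4. The lowest CCl4 library was above the highest control, and the log2 fold change was 0.24 ± 0.08 (SE; limma adjusted p = 0.0475). This call ended with no filter (limma adjusted p = 0.105), as TPM (0.13, limma adjusted p = 0.233) and on leaving out any single library other than control replicate 3 (limma adjusted p 0.0944 to 0.133). The citrate carrier Slc25a1 was at 2.46 ± 0.459 and 2.61 ± 0.196 FPKM (SD, n = 3 each) and was not called. Slc25a21, the oxodicarboxylate carrier, was listed at 0 in all libraries but CCl4 replicate 3, where it had 0.01 FPKM.

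Of 9 tested members listed here as amino acid carriers, a list that includes Slc25a47, 1 fell and 0 rose. Their median was 0.14, beside 22.2% lower and 9.64% higher over all rows. The one that fell was Slc25a22 (chr7:141429744-141437892, minus strand), a glutamate carrier, with 9.79, 7.89 and 7.51 FPKM in the control libraries against 4.25, 5.19 and 4.57 FPKM under CCl4. The groups were well apart, and the mean fell from 8.40 ± 1.22 to 4.67 ± 0.478 FPKM (SD, n = 3 each), to 55.6% of control (log2 fold change -0.72 ± 0.11 SE, limma adjusted p = 0.0025). The aspartate/glutamate carriers Slc25a12 (aralar) and Slc25a13 (citrin) are the other inner membrane carriers of the malate-aspartate shuttle. Slc25a12 was at 22.6 ± 2.11 and 22.7 ± 1.97 FPKM (SD, n = 3 each; limma adjusted p = 0.961).

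Slc25a13 had 33.9, 20.2 and 22.2 FPKM in the control libraries against 28.6, 29.98 and 31.9 FPKM under CCl4. Control replicate 1 lay above all CCl4 libraries and the other controls below them. The log2 fold change was 0.27 ± 0.17 (SE; limma adjusted p = 0.255), and without control replicate 1 it was 0.49 (limma adjusted p = 0.00577). The ratio of Slc25a11 to the sum of Slc25a12 and Slc25a13 was 3.23 ± 0.382 in control libraries against 3.89 ± 0.161 under CCl4 (SD, n = 3 each; exact two-sided permutation p = 0.1, adjusted 0.133).

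Of the other tested members of this list, which were not called, Slc25a38, the glycine carrier of heme synthesis, was at 5.77 ± 0.729 and 5.55 ± 0.3 FPKM (SD, n = 3 each here and below). Slc25a44, which carries branched-chain amino acids, was at 4.83 ± 0.106 and 5.03 ± 0.877 FPKM. Slc25a29, a carrier of basic amino acids, was at 2.03 ± 0.353 and 2.50 ± 0.372 FPKM, and the ornithine carrier Slc25a15 at 1.47 ± 0.244 and 1.82 ± 0.219 FPKM. Slc25a45 was at 1.56 ± 0.405 and 1.81 ± 0.251 FPKM. Slc25a47, best known from liver, was at 1.2 ± 0.125 and 1.59 ± 0.406 FPKM. It lies 162 bases from Slc25a29 on the opposite strand of chromosome 12. The second glutamate carrier Slc25a18 and the second ornithine carrier Slc25a2 averaged 0.147 and 0.117 FPKM in control libraries, against 0.167 and 0.0833 FPKM under CCl4, under the level tested. Slc25a48 was listed at 0 in every library.

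**Figure D3:**
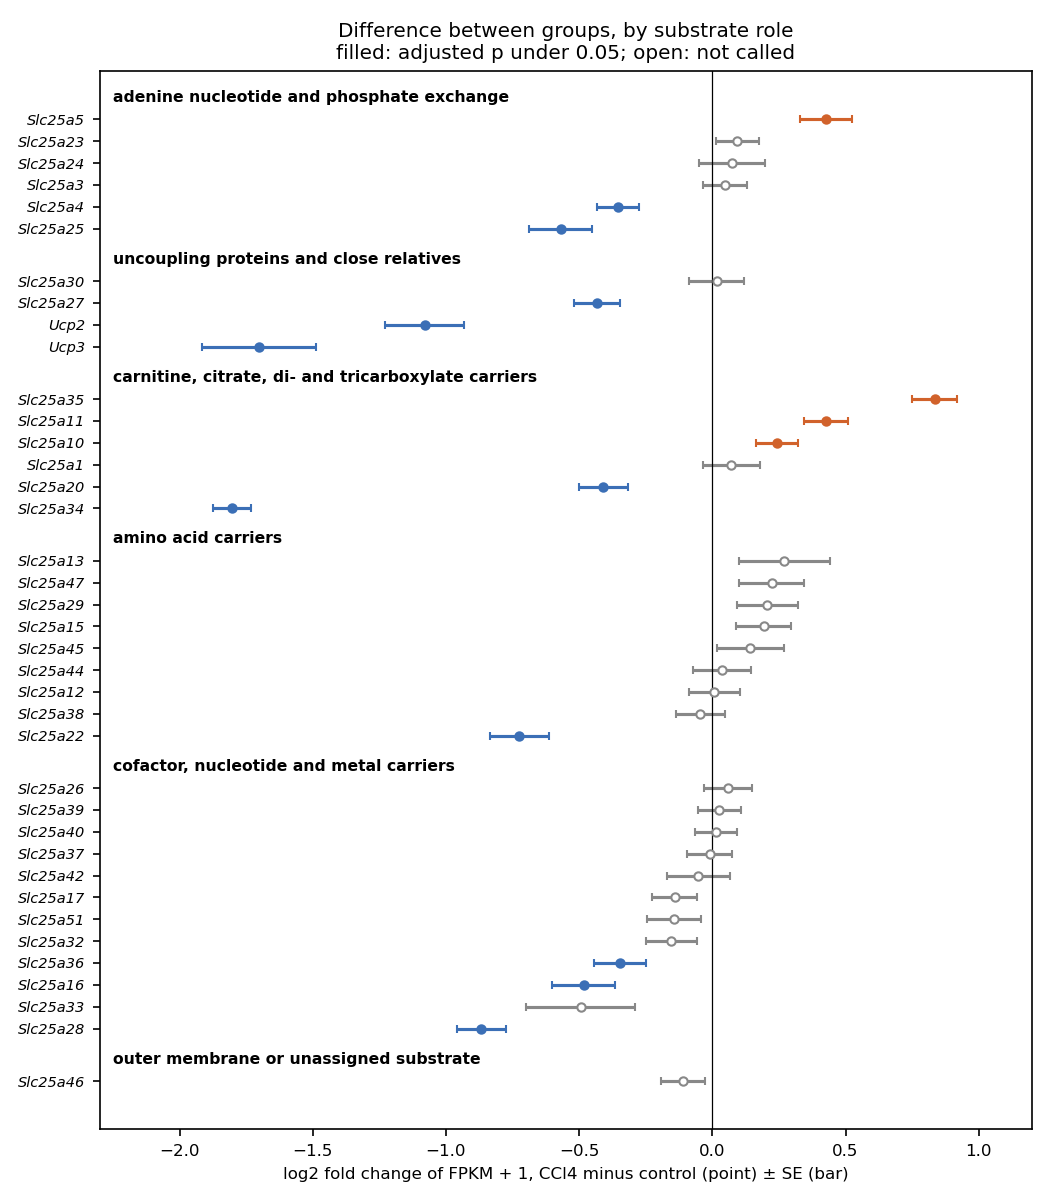
Log2 fold change (CCl4 minus control, log2(FPKM + 1) scale) with its standard error for 38 tested members, grouped by transport role, with filled points for members called at a limma adjusted p under 0.05. Slc25a34, Ucp3 and Ucp2 lie farthest below 0 and Slc25a35 farthest above.

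Among 13 tested carriers of cofactors, nucleotides and metals, 1 rose and 3 fell, with a median of -0.14, close to the 9.64% higher and 22.2% lower over all rows. Slc25a28 (chr19:43663801-43674881, minus strand), the iron importer mitoferrin-2 of cells other than red cell precursors, had 9.07, 11.6 and 10.6 FPKM in the control libraries against 5.31, 5.24 and 5.11 FPKM under CCl4. The CCl4 libraries lay close together and all below control. Slc25a28 fell from 10.4 ± 1.25 to 5.22 ± 0.101 FPKM (SD, n = 3 each), to 50.2% of control, with a log2 fold change of -0.87 ± 0.09 (SE; limma adjusted p = 0.000571). The erythroid form mitoferrin-1, Slc25a37, was at 3.07 ± 0.229 and 3.04 ± 0.288 FPKM (SD, n = 3 each; limma adjusted p = 0.934).

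Slc25a16, linked to coenzyme A, had 6.52, 7.84 and 8.64 FPKM in the control libraries against 4.41, 5.60 and 5.58 FPKM under CCl4, with no overlap. It fell by 0.48 ± 0.12 on the log2 scale (SE; limma adjusted p = 0.0173), a call that ended with no filter (limma adjusted p = 0.0621), without control replicate 2 (0.0526) and without CCl4 replicate 1 (0.0527). The other coenzyme A carrier, Slc25a42, was at 10.8 ± 1.68 and 10.3 ± 0.981 FPKM (SD, n = 3 each) and was not called. Slc25a36, a pyrimidine nucleotide carrier, had 5.26, 5.84 and 6.78 FPKM in the control libraries against 4.26, 4.84 and 4.28 FPKM under CCl4, again with no overlap. It fell by 0.35 ± 0.10 on the log2 scale (SE; limma adjusted p = 0.0292), and the call ended with no filter (limma adjusted p = 0.0816), with median-ratio scaling (0.0527), without mitochondrial rows (0.0627) and without control replicate 2, control replicate 3, CCl4 replicate 1 or CCl4 replicate 3 (0.0679 to 0.0932).

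The second pyrimidine nucleotide carrier, Slc25a33, had 16.5, 10.6 and 8.16 FPKM in the control libraries against 8.16, 7.11 and 7.92 FPKM under CCl4. Control replicate 3 equalled the highest CCl4 library, and the log2 fold change of -0.49 ± 0.20 was not called (SE; limma adjusted p = 0.098). It was called as TPM (-0.64, limma adjusted p = 0.0394) and without control replicate 3 (-0.71, limma adjusted p = 0.0194). Slc25a17, the coenzyme carrier of peroxisomes, was at 4.68 ± 0.243 and 4.16 ± 0.414 FPKM (SD, n = 3 each; log2 fold change -0.14, limma adjusted p = 0.232) and was called as TPM (-0.27, limma adjusted p = 0.0389).

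The glutathione carrier Slc25a39 was at 26.0 ± 1.93 and 26.4 ± 1.01 FPKM and its relative Slc25a40 at 1.10 ± 0.0173 and 1.12 ± 0.0794 FPKM (SD, n = 3 each here and below). Slc25a51, which brings in NAD, was at 10.3 ± 1.02 and 9.24 ± 0.981 FPKM. Slc25a26, the carrier of the methyl donor S-adenosylmethionine, was at 2.96 ± 0.339 and 3.12 ± 0.251 FPKM, and the folate and FAD carrier Slc25a32 at 2.45 ± 0.232 and 2.11 ± 0.277 FPKM. None of these 5 was called. Of the members outside these roles, Slc25a46, a protein of the outer membrane that acts in mitochondrial shape, was the only one tested, at 10.8 ± 0.932 and 9.87 ± 0.442 FPKM (log2 fold change -0.11, limma adjusted p = 0.335). Slc25a43 and Slc25a53 averaged 0.0467 and 0.21 FPKM in control libraries, against 0.0833 and 0.193 FPKM under CCl4, too low to be tested. In a fit with no filter, 8 of the 9 members under 1 FPKM entered and limma called 0 of them.

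The summed FPKM of all members was 2426 ± 149.9 in control libraries against 2060 ± 54.3 under CCl4 (SD, n = 3 each; exact two-sided permutation p = 0.1, adjusted 0.133). Without Slc25a4 the sums were 848.2 ± 61.7 and 826.8 ± 28.2 FPKM (SD, n = 3 each; exact permutation p = 0.6, adjusted 0.6), and the 2 groups overlapped. As a share of the FPKM sum without mitochondrial rows, the members took 1.39% ± 0.0528 in control libraries against 1.22% ± 0.0278 under CCl4 (SD, n = 3 each; exact permutation p = 0.1, adjusted 0.133).

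**Figure D4:**
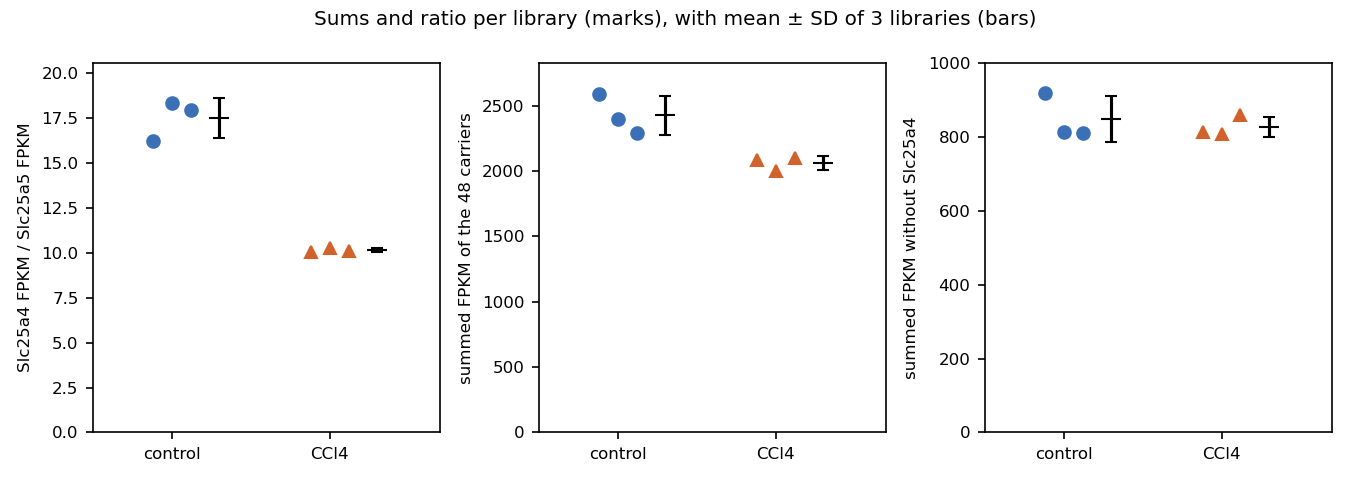
Per-library values, with bars for mean ± SD of each group, of the ratio of Slc25a4 to Slc25a5 and of the summed FPKM of the 48 members with and without Slc25a4. The ratio separates the groups, at 16.2 to 18.3 against 10.1 to 10.3, while the sums without Slc25a4 overlap.

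Other genes that serve these carriers were taken from 5 lists. Of 50 tested, 9 were higher (18%) and 6 lower (12%), with a median log2 fold change of 0.07. Over all rows tested 9.64% were higher and 22.2% lower, with a median of -0.09, and the counts of each list below stand beside those shares. The machinery that imports carriers through the outer and inner membranes had 3 of 15 members higher and 1 lower. Timm22, the pore of the complex that inserts carriers into the inner membrane, rose from 2.86 ± 0.43 to 6.81 ± 0.325 FPKM (SD, n = 3 each; log2 fold change 1.02 ± 0.10 SE, limma adjusted p = 0.000351). Tomm5, a small subunit of the outer membrane pore, rose from 27.5 ± 3.51 to 42.8 ± 4.75 FPKM, and Tomm20, a receptor of that complex, fell from 14.3 ± 0.942 to 10.6 ± 0.398 FPKM (SD, n = 3 each).

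Of 14 enzymes that work with a carrier, 2 rose and 5 fell. Cpt1b, the muscle enzyme that makes acylcarnitines, fell from 212.8 ± 9.14 to 118.8 ± 5.62 FPKM (SD, n = 3 each; log2 fold change -0.84 ± 0.08 SE, limma adjusted p = 0.000315). Its liver-type form Cpt1a fell from 10.7 ± 1.39 to 5.27 ± 0.796 FPKM (SD, n = 3 each), and the carnitine acetyltransferase Crat from 91.1 ± 2.80 to 71.7 ± 5.23 FPKM. Named after their values were seen, Cpt2, which remakes acyl-CoA inside mitochondria, fell by 0.25 on the log2 scale (limma adjusted p = 0.0488), and Atpif1, the inhibitor of ATP synthase, by 0.32 (limma adjusted p = 0.0496). Both lay close to the threshold, and the groups overlapped for Atpif1, with 39.2 FPKM in CCl4 replicate 1 above 38.9 FPKM in control replicate 2. Ppif, a regulator of the permeability pore, rose by 0.42 (limma adjusted p = 0.0286) and glutamate dehydrogenase Glud1 by 0.27 (limma adjusted p = 0.0385).

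Of 7 porins and pyruvate carrier genes 2 rose and 0 fell, namely the outer membrane carrier homologue Mtch1 (12.9 to 19.1 FPKM, log2 fold change 0.55) and the pyruvate carrier subunit Mpc2 (16.1 to 21.5 FPKM, 0.41). Among 8 genes of the calcium uniporter and related exchange, Letm1 was the one called, from 5.45 to 8.38 FPKM (0.55). Of 6 sideroflexins and ABC transporters 1 was higher and 0 lower.

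**Figure D5:**
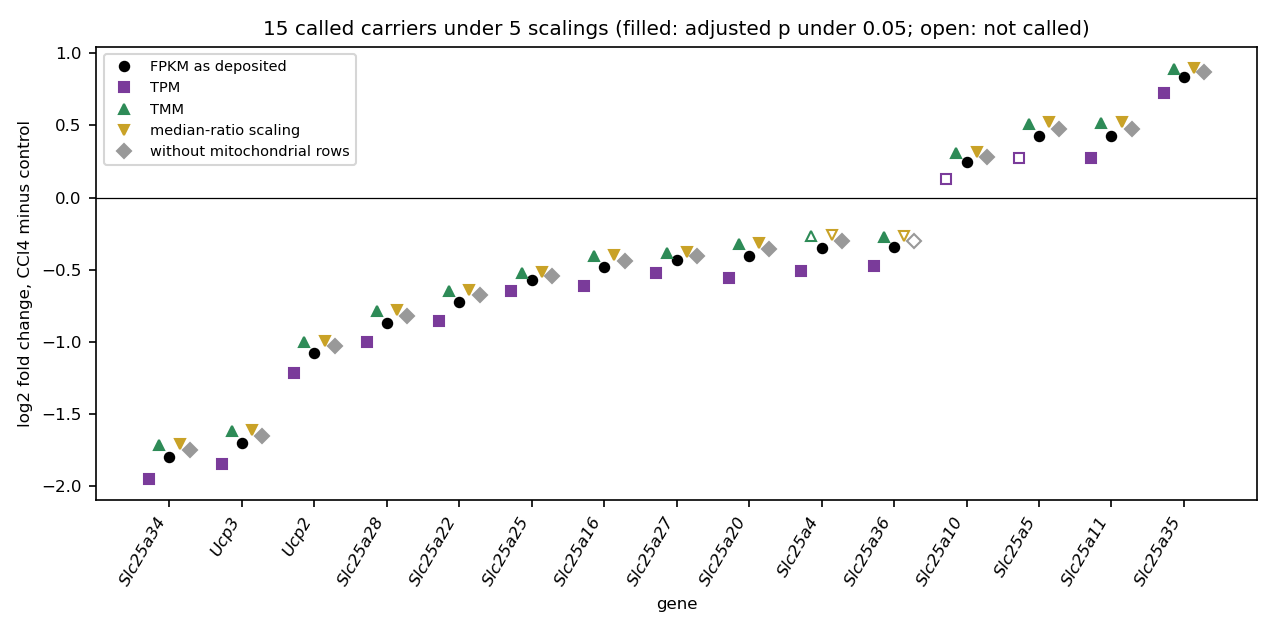
Log2 fold change of 15 called members as deposited, as TPM, with TMM, with median-ratio scaling and without mitochondrial rows, with filled points where limma called the member under that scaling. All 15 keep their sign, and open points are those of Slc25a4, Slc25a5, Slc25a10 and Slc25a36.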

How the data were processed

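RNA sequencing was done on 3 control and 3 CCl4 libraries, with 3 mice per group, 1 for each library by the design text. Per the labels' protocols, poly(A) RNA from Trizol extracts (RIN over 7) was made into strand-marked paired-end libraries. The authors deposited FPKM per gene symbol, made with StringTie 2.1.6 on GRCm38, according to the submitters' processing notes. Aligner, annotation release and strand setting were each not given in the sources used here. FPKM sums differed between libraries (519609 to 602763).

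Low FPKM times the length of 3567 single-exon genes gave whole numbers, within 0.1, for 19.0% to 33.6% of values (20% if evenly spread). Whole reads could not be recovered, no count test was run and depth is unknown. FPKM were transformed to log2(FPKM + 1), rows with a mean of at least 1 FPKM were kept, and CCl4 was tested against control in limma 3.58.1 under R 4.3.3 (mean-variance trend, two-sided, no covariate), with Benjamini-Hochberg adjustment over all rows and calls at an adjusted p under 0.05. The script was tested on simulated data.

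Members and lists were chosen with earlier results of these data known. Members were given with group means, except that some results are not reported here, which also leaves 1 tested member out of the plots. Called members, the 6 most abundant members and Ucp1, Ucp2, Ucp3, Slc25a4, Slc25a5 and Slc25a20 were given by library, as were some others of interest, and up to 3 called genes per partner list by smallest p. Alternatives were a pseudocount of 0.1, no filter or a mean of at least 5 FPKM, TPM, TMM and median-ratio scaling, removal of mitochondrial rows and their nuclear copies, robust variances, the replicate number as a block, and leaving out each library. Positions are from GENCODE M21 (GRCm38), matched by symbol, and promoter windows from RefSeq.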

Additional observations from a re-analysis of the deposited data

How the results depend on the processing

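Fragment depth is unknown, so no counting error can be given for low members, and 3 libraries per group limit the precision of every difference. Slc25a34, Ucp3, Ucp2, Slc25a28, Slc25a35, Slc25a20, Slc25a22, Slc25a25, Slc25a27 and Slc25a11 kept their calls under every alternative that tested them. Slc25a25, Slc25a27 and Slc25a35 were too low to be tested at a mean of at least 5 FPKM. Slc25a25 passed the main filter only through its control libraries, which bears on its call. No member called in the comparison as reported or under an alternative turned its sign. The cause of the shifts below was not tested. A stricter filter also tests fewer rows, and leaving out a library leaves fewer samples.

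Rows called higher (1060) numbered 655 at a mean of at least 5 FPKM, 618 as TPM and 642 to 1137 with 1 library left out, with 642 without CCl4 replicate 3 and 648 without control replicate 2. Rows called lower (2441) numbered 1510, 4234 and 1546 to 2121, with 1546 without CCl4 replicate 3. Members called higher (5) numbered 3 of 22 at a mean of at least 5 FPKM, 3 as TPM and 3 to 5 with 1 library left out, the 3 being without CCl4 replicate 3. The members' median log2 fold change (0.01) was -0.13 over the 22 members at a mean of at least 5 FPKM, and -0.13 as TPM. Correlations of deviations between same-numbered samples were -0.064, 0.046 and -0.038, against -0.097 to 0.12 between samples of different number. Pairing by replicate number was thus not seen. Deviations cancel out within each group, so these values are tied to each other and cannot settle whether samples were paired. With the replicate block, 4 members were higher and 10 lower, with 861 and 1790 of all rows, and Slc25a10 (adjusted p = 0.108) and Slc25a36 (0.0517) lost their calls in limma.

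Sign turns all concerned members that limma called in neither fit. As TPM the log2 fold changes were -0.040 for Slc25a1, -0.14 for Slc25a12, -0.044 for Slc25a23, -0.030 for Slc25a24, -0.057 for Slc25a26, -0.11 for Slc25a3, -0.084 for Slc25a30, -0.12 for Slc25a39, -0.069 for Slc25a40 and -0.092 for Slc25a44. With TMM they were 0.055 for Slc25a37, 0.029 for Slc25a38 and 0.027 for Slc25a42, with median-ratio scaling 0.062 for Slc25a37, 0.037 for Slc25a38 and 0.036 for Slc25a42, and without mitochondrial rows 0.028 for Slc25a37. With 1 library left out the values ran from -0.013 to 0.17 for Slc25a1, -0.045 to 0.078 for Slc25a12, -0.011 to 0.18 for Slc25a24, -0.039 to 0.10 for Slc25a30, -0.047 to 0.050 for Slc25a37, -0.10 to 0.041 for Slc25a38, -0.025 to 0.078 for Slc25a39, -0.0074 to 0.044 for Slc25a40, -0.17 to 0.042 for Slc25a42 and -0.056 to 0.16 for Slc25a44.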
